A study of Mus musculus with 8 samples.

Results

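Sarcolipin and the atrial myosin light chains were followed in the left ventricle of mice whose left anterior descending coronary artery had been tied off (LAD ligation), which infarcts the ventricular wall. The members are the probe sets annotated to Sln, Myl4 and Myl7, 5 of the 22626 probe sets on the array, and they cover 3 of the 8195 genes kept for comparison. The samples were left ventricles of male mice of the inbred strains MRL/MpJ and C57BL/6, 2 to 4 months old by the labels, taken untreated or 3, 30 or 60 days after ligation. MRL/MpJ is an inbred strain noted for unusually complete repair of ear punch holes, and C57BL/6 is a common laboratory strain. Each combination of strain and time point had 1 array, 8 in all, so no group has a replicate of its own. The comparison hearts were untreated and not sham-operated, and whether animals were pooled for an array is not given in the labels. The genes were chosen with their values on these arrays known, so their levels and differences are a description and carry no p-value.

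Sln encodes sarcolipin, a very small membrane protein that sits against the calcium pump SERCA of the sarcoplasmic reticulum and lowers its efficiency. In the mouse heart it belongs to the atria, while the ventricle uses the related inhibitor phospholamban, encoded by Pln. Myl4 and Myl7 encode the essential and the regulatory light chain of atrial myosin, which clasp the lever arm of the motor. Their ventricular counterparts are Myl3 and Myl2. All 3 genes are markers of atrial muscle, and light chains of the atrial type are also made in the embryonic heart and can return in diseased ventricles.

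Promoters of the light chain genes are shown because the genes moved together across the arrays. RefSeq's GRCm38.p6 table held Myl4 and Myl7, 2 of the 3 genes. Each window runs from 250 bases before to 50 bases after a transcription start. Capitals mark motif matches found by a search of both strands. The Myl7 window lies at chr11:5898733-5899032 on the minus strand and the Myl4 window at chr11:104550413-104550712 on the plus strand.
Myl7: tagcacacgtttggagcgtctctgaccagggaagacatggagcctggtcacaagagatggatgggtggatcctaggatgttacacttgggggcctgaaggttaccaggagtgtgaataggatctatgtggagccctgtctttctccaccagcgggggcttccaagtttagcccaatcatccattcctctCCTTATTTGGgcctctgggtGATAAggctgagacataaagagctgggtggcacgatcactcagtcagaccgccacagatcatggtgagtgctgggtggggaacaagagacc
Myl4: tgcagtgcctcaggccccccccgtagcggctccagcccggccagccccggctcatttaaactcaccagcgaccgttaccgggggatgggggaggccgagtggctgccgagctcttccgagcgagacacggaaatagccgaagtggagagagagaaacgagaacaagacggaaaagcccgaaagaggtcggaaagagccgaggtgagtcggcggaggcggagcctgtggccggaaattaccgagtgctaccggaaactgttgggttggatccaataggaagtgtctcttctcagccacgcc
Searched were AGATAA and its shorter core GATAA (GATA factors, the first containing the second), AGGTGT (T-box factors), TTAAAAATA (MEF2 factors), AGGTCA (nuclear receptors), TATAAA (the TATA box) and the CArG box bound by serum response factor. The Myl7 window held a CArG box beginning 61 bases before the start and GATAA beginning 41 bases before it. Of 32851 promoter windows of this length, 1.63% held a CArG box and 25.4% held GATAA. The Myl4 window held none of the letters searched. Its GC content was 61.7%, with 25 CpG dinucleotides, against 53.7% and 5 in the Myl7 window.

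The values are MAS5 signal intensities, scaled array by array. Differences are given as log2 of the signal plus an offset of 28.6, which damps noise near background and understates changes of dim genes. Median signals ranged from 112.8 to 139.5 over the arrays. The C57BL/6 day 30 array stood apart from the others. Its correlation with them across the 8195 genes was at most 0.877, against 0.884 to 0.948 among the other 21 pairs of arrays, and its highest signal was 75193, on Myl2. Genes are not independent replicates in these correlations. As a yardstick for the spread between arrays, the untreated MRL/MpJ and untreated C57BL/6 arrays differed by a median absolute log2 of 0.25 per gene, with a 95th percentile of 0.88. This pair differs in strain as well, so the yardstick is not a spread between replicates. The ventricular light chain genes Myl2 and Myl3 had signals of at least 23390 and 22375 in every array (the labelled tissue is left ventricle).

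Sln was near the bottom of the scale in a pair of arrays and among the brightest genes in a trio. In MRL/MpJ hearts its main probe set (1420884_at) had signals of 234.6 untreated, 6.1 on day 3, 3254.2 on day 30 and 2932.2 on day 60. In C57BL/6 hearts the signals were 251.4 untreated, 858.4 on day 3, 3078.4 on day 30 and 6.7 on day 60. The untreated hearts of both strains thus lay close together, both day 30 hearts were high, and days 3 and 60 were opposite in the strains. Within its array the Sln signal stood at percentile 3.85 of all probe sets in MRL/MpJ on day 3 and at percentile 6.46 in C57BL/6 on day 60, and at percentiles 97.8 to 98.3 in the high trio. The arrays hold bulk tissue, so in any of these arrays a different number of cells with the transcript and a different amount of it per cell cannot be told apart. The second Sln probe set (1420883_at) stayed below the median signal of its array in 8 of 8 arrays, at 9.8 to 68.9, and did not follow the first. Detection calls were not used here, so a signal this dim is given as measured and not as absent.

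**Figure D1:**
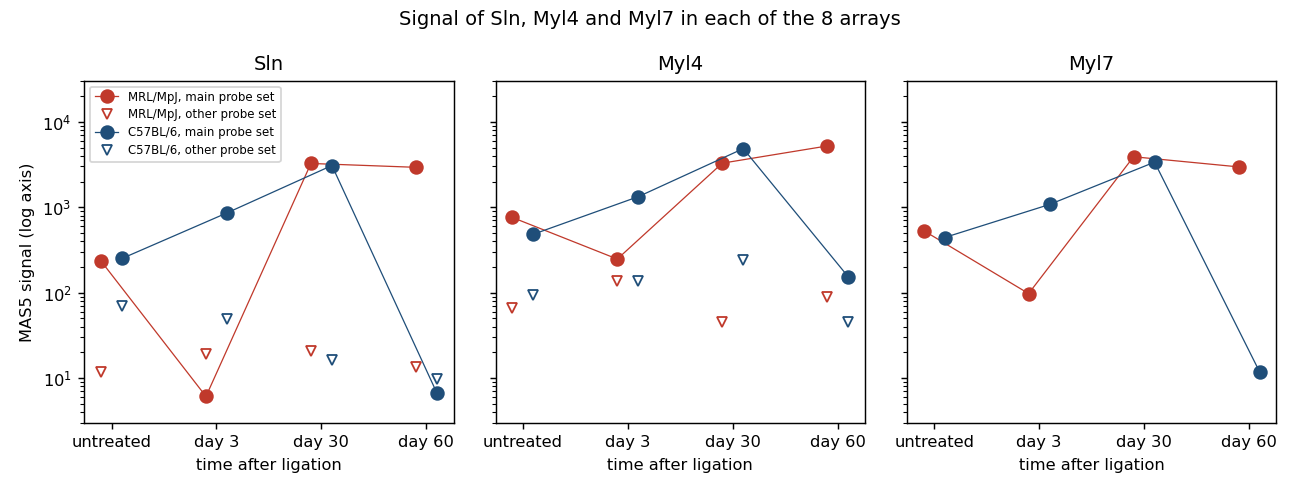
MAS5 signal (log axis) of Sln, Myl4 and Myl7 in the 8 arrays, by time after ligation; filled circles are the main probe set of each gene, open triangles the other probe set of Sln and Myl4, red MRL/MpJ and blue C57BL/6, 1 array per point, with lines drawn only to guide the eye. In all 3 genes the main probe set is high in both strains on day 30, low in MRL/MpJ on day 3 and low in C57BL/6 on day 60.

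Myl4, the essential light chain, took the same course at a higher floor. On its main probe set (1422580_at) MRL/MpJ hearts had signals of 759.1 untreated, 247.5 on day 3, 3278.6 on day 30 and 5212.7 on day 60. C57BL/6 hearts had 483.0 untreated, 1329.7 on day 3, 4852.8 on day 30 and 153.6 on day 60. On this probe set Myl4 was above the median of its array in 8 of 8 arrays, its lowest values included. The second Myl4 probe set (1457126_at) was dim, with 44.9 in C57BL/6 on day 60 as its lowest and 242.1 in C57BL/6 on day 30 as its highest signal. It shared those extremes of the C57BL/6 hearts, but had 138.3 in MRL/MpJ on day 3 against 66.6 untreated, and 45.4 on day 30, which the main probe set did not show.

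Myl7, the regulatory light chain, has 1 probe set (1449071_at). MRL/MpJ hearts had signals of 532.5 untreated, 97.6 on day 3, 3899.3 on day 30 and 2967.3 on day 60. C57BL/6 hearts had 442.3 untreated, 1077.9 on day 3, 3371.6 on day 30 and 11.9 on day 60. The C57BL/6 day 60 signal was at percentile 11.4 of its array, and the 3 highest were at percentiles 97.9 to 98.4.

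The order of the arrays was nearly the same in the 3 genes. The MRL/MpJ day 30, C57BL/6 day 30 and MRL/MpJ day 60 arrays held the top 3 places in each gene, followed by C57BL/6 day 3, then the untreated pair, then MRL/MpJ day 3 and C57BL/6 day 60. Neighbours within the top trio differed by a log2 of 0.07 to 0.56, inside the 0.88 of the yardstick, so their order is not resolved. The untreated pair differed by 0.09 for Sln, 0.62 for Myl4 and 0.25 for Myl7, and cannot be judged by the yardstick, which it sets. The step from the trio down to C57BL/6 day 3 was 1.74 for Sln, 1.28 for Myl4 and 1.44 for Myl7, past the yardstick in each gene. The step from C57BL/6 day 3 to the next array was 1.66, 0.79 and 0.98, so that of Myl4 stayed inside it. The step from the lower untreated array to the next was 2.90, 0.89 and 1.90. Between the lowest 2 arrays Sln differed by 0.02 and Myl4 by 0.60, while Myl7 was lower in C57BL/6 day 60 by 1.64.

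These genes were among those with the widest range over the arrays. From the highest to the lowest array Myl7 covered a log2 of 6.60, Sln 6.56 and Myl4 4.85, which placed them at ranks 1, 2 and 4 of the 8195 genes. The lowest signals of Sln (6.1) and Myl7 (11.9) lie under the offset, so the offset sets their ranges and the order of the 2. With the offset at 11.8, Sln covered 7.51, Myl7 7.37 and Myl4 4.98, at ranks 1, 2 and 6. With the offset at 84.8, Sln, Myl7 and Myl4 were at ranks 2, 1 and 4. The ratio of the signals themselves was 533 for Sln and 328 for Myl7. The median gene covered 0.95 and the 99th percentile was 2.90. Sfrp2, a secreted Wnt modulator at 5.39, was the widest gene outside the 3, and Adipoq, the adiponectin gene, followed Myl4 with 4.68.

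**Figure D2:**
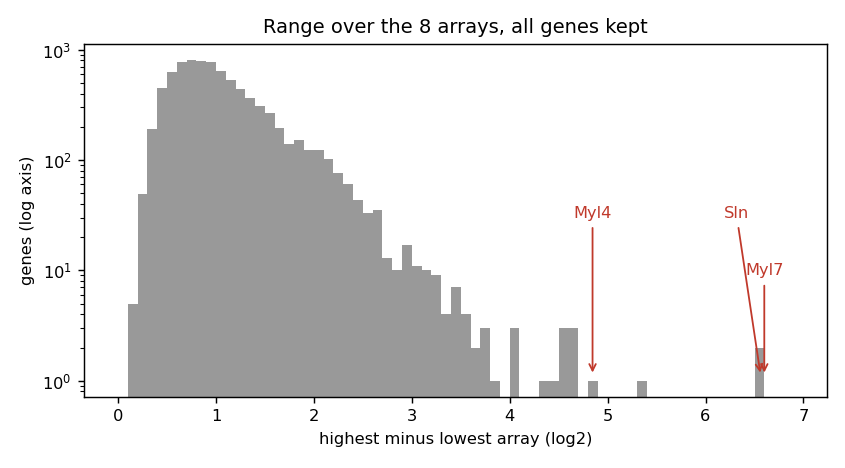
Histogram of the difference between the highest and the lowest array (log2 of signal plus offset) for the 8195 genes kept; the count axis is logarithmic and arrows mark the 3 genes. Myl7 (6.60) and Sln (6.56) lie furthest right, and Myl4 (4.85) is at rank 4.

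On day 30, all 3 genes were higher than in untreated hearts of the same strain. In MRL/MpJ hearts Sln was higher by a log2 of 3.64, Myl7 by 2.81 and Myl4 by 2.07, which are ranks 2, 9 and 33 from the top of 8195 genes. In C57BL/6 hearts Sln was higher by 3.47, Myl4 by 3.25 and Myl7 by 2.85, at ranks 7, 8 and 11. All 3 genes passed 2-fold in both strains, where 3.09% of all genes did so upwards in MRL/MpJ and 7.91% in C57BL/6. The genes were chosen on these arrays, so nothing is read from that contrast. The C57BL/6 day 30 array is the one that stood apart, and the MRL/MpJ values do not involve it. With the mean over both probe sets of a gene in place of the brighter one, the MRL/MpJ values were 1.96 for Sln and 0.85 for Myl4, the second of these below 2-fold, and the C57BL/6 values were 1.18 for Sln and 2.20 for Myl4.

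On day 3 the strains went opposite ways. In MRL/MpJ hearts Sln was lower than untreated by a log2 of -2.92, Myl7 by -2.15 and Myl4 by -1.51. All 3 passed 2-fold downwards, as did 2.64% of all genes. In C57BL/6 hearts Sln was higher by 1.66, Myl4 by 1.41 and Myl7 by 1.23, again all 3 past 2-fold, where 2.43% of all genes passed upwards. With the mean over both probe sets, the MRL/MpJ values were -1.34 for Sln and -0.35 for Myl4, and the C57BL/6 values 0.66 for Sln and 0.92 for Myl4, so that Sln in MRL/MpJ alone of these 4 still passed 2-fold. On the offset scale the Sln signal was 7.59-fold lower on day 3 in MRL/MpJ hearts and 3.17-fold higher in C57BL/6 hearts.

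On day 60 the directions were exchanged. MRL/MpJ hearts had Sln at a log2 of 3.49, Myl4 at 2.73 and Myl7 at 2.42 above untreated, all 3 past 2-fold, where 4.56% of all genes passed upwards. In C57BL/6 hearts Myl7 stood at -3.54, Sln at -2.99 and Myl4 at -1.49. All 3 passed 2-fold downwards, where 2.12% of all genes did. Myl7 and Sln were among the lowest 3 of all genes in that comparison with the offset at 11.8, 28.6 or 84.8. Their order is not resolved, since their C57BL/6 day 60 signals, 11.9 and 6.7, lie under the 28.6. Myl4 was at rank 36 of 8195 from the bottom. With the mean over both probe sets, Sln and Myl4 stood at 1.77 and 1.52 in MRL/MpJ hearts and at -2.17 and -1.11 in C57BL/6 hearts. All 3 comparisons within a strain share that strain's untreated array.

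**Figure D3:**
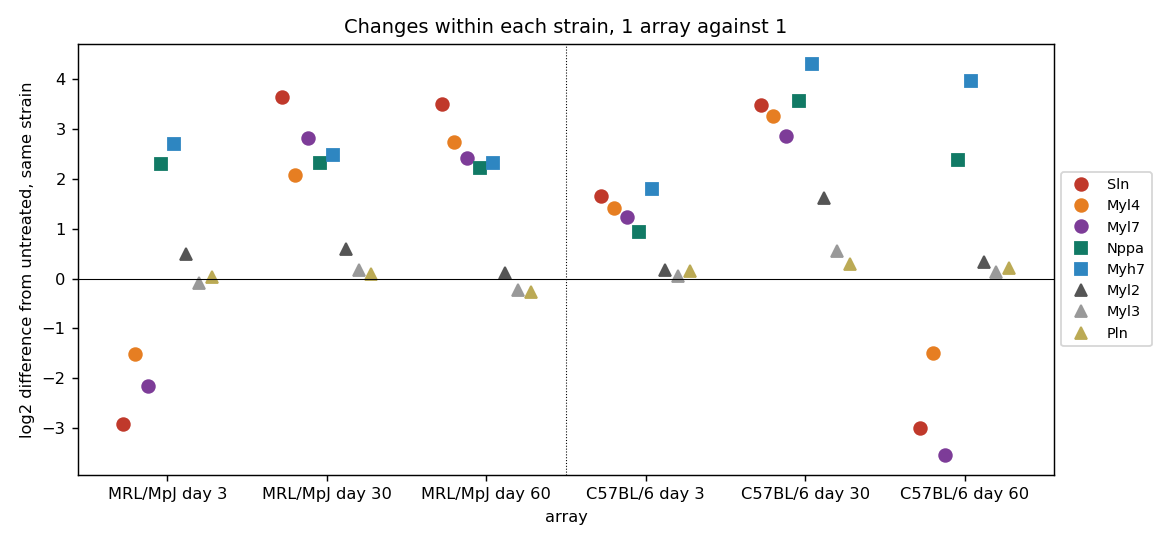
Log2 difference (signal plus offset) between each ligated array and the untreated array of the same strain, 1 array against 1, for Sln, Myl4 and Myl7 (circles), Nppa and Myh7 (squares) and Myl2, Myl3 and Pln (triangles). In MRL/MpJ on day 3 and in C57BL/6 on day 60 the circles lie below 0 and both squares lie above 2.

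Set strain against strain, the untreated hearts had MRL/MpJ minus C57BL/6 at a log2 of -0.09 for Sln, 0.62 for Myl4 and 0.25 for Myl7. The untreated pair sets the yardstick and is not judged by it. The day 30 pair lay within the yardstick, at 0.08 for Sln, -0.56 for Myl4 and 0.21 for Myl7. Quantile normalization turned Sln to -0.26 and Myl7 to -0.14 on day 30. On day 3 MRL/MpJ was lower by -4.68 for Sln, -3.13 for Myl7 and -2.30 for Myl4, at ranks 1, 3 and 15 from the bottom of 8195 genes (2, 4 and 9 with the offset at 84.8). On day 60 MRL/MpJ was higher by 6.39 for Sln, 6.21 for Myl7 and 4.85 for Myl4, at ranks 1, 2 and 3 from the top. These day 3 and day 60 pairs share no array. A difference at or under -2 on day 3 and at or over 2 on day 60 was found in 4 of 8195 genes, Sln, Myl4, Myl7 and Tcl1b4, the last a gene of the Tcl1 family chosen after its values were seen. Tcl1b4 was dim, with a lowest signal of 13.9 in C57BL/6 on day 60 and a highest of 243.2 in C57BL/6 on day 3.

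**Figure D4:**
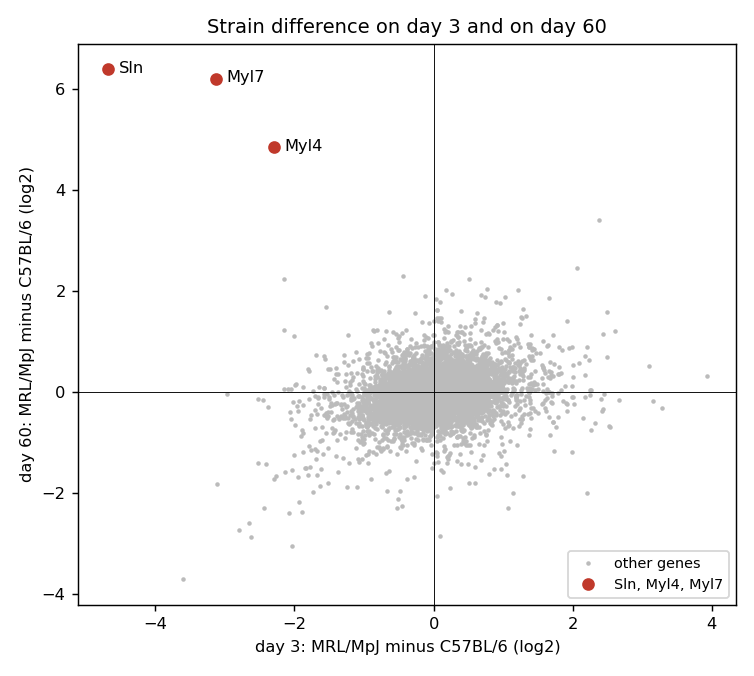
MRL/MpJ minus C57BL/6 (log2 of signal plus offset) on day 3 (horizontal) and on day 60 (vertical) for the 8195 genes kept, 1 array against 1 on each axis; red points are Sln, Myl4 and Myl7 and grey points the other genes. The 3 genes lie in the upper left, at -4.68 and 6.39 for Sln, -3.13 and 6.21 for Myl7, and -2.30 and 4.85 for Myl4.

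A model with strain and time point as additive terms, fitted with limma across all 8195 genes, averages over these opposite courses. For day 30 against untreated it gave a log2 of 3.56 for Sln (moderated SE 2.02), 2.66 for Myl4 (SE 1.36) and 2.83 for Myl7 (SE 1.73), 2 arrays against 2. For day 3 the values were -0.63 for Sln (SE 2.02), -0.05 for Myl4 (SE 1.36) and -0.46 for Myl7 (SE 1.73). For day 60 they were 0.25, 0.62 and -0.56 with the same SEs. For MRL/MpJ against C57BL/6, 4 arrays against 4, they were 0.43 for Sln (SE 1.43), 0.65 for Myl4 (SE 0.96) and 0.88 for Myl7 (SE 1.23). The day 30 values were the only ones of these to exceed their SE, which is no test, since the genes were chosen on these arrays. The error is large because the model takes it from strain-by-time differences. The residual SD was 3.21 for Sln, 2.75 for Myl7 and 2.15 for Myl4, ranks 1, 2 and 3 of 8195 genes, against a median of 0.27. Leaving out the MRL/MpJ array turned the sign of the day 3 values. Without it they were 2.77 for Sln, 1.92 for Myl4 and 2.22 for Myl7, and without the C57BL/6 day 3 array -4.03, -2.02 and -3.14. For day 60 they were -3.72, -2.17 and -4.11 without the MRL/MpJ array of that day, and 4.23, 3.42 and 2.99 without the C57BL/6 one. The strain values turned to -1.56, -0.75 and -0.89 without either day 60 array. For day 30 they stayed above 0 without either array of that day, at 3.79 for Sln, 3.47 for Myl4 and 3.28 for Myl7 without the MRL/MpJ array and 3.33, 1.85 and 2.38 without the C57BL/6 one.

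Nppa and Myh7, which stressed ventricles also re-express, did not share these lows. Nppa, the atrial natriuretic peptide gene, had signals of 5780.6 untreated, 28354.5 on day 3, 28876.9 on day 30 and 26763.2 on day 60 in MRL/MpJ hearts. In C57BL/6 hearts it had 3455.2, 6605.4, 41056.0 and 17996.2 at the same times. In MRL/MpJ on day 3 and C57BL/6 on day 60, the arrays where Sln was lowest, Nppa was above untreated by a log2 of 2.29 and 2.37. Myh7, the slow myosin heavy chain, was above untreated by 2.70 and 3.96 in the same arrays. Of 15 measured genes of the fetal and stress programme without the atrial light chains, 13 were kept, and 4 of these were at least 2-fold higher and 0 lower in MRL/MpJ on day 3 (background 4.98% upwards), with a median log2 of 0.66 beside 0.05 for all genes. In C57BL/6 on day 60 it was 4 higher and 0 lower (background 3.64% upwards), with a median of 0.33 beside -0.05. Those past 2-fold in both arrays were Nppa, Myh7 and Ccn2, the connective tissue growth factor gene. Some of the 13 were below untreated without reaching 2-fold. Tnnt1, for example, stood at -0.95 in MRL/MpJ on day 3, but at 0.33 in C57BL/6 on day 60.

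The ventricular counterparts of the 3 genes stayed nearly level. Myl3, the ventricular essential light chain, differed from untreated by a log2 between -0.23 and 0.55 over the 6 ligated arrays. Pln, the ventricular SERCA inhibitor, differed by -0.27 to 0.30. Myl2, the ventricular regulatory light chain, differed by 0.11 to 0.60 in 5 ligated arrays and by 1.61 in C57BL/6 on day 30. Each of these 3 stayed within the yardstick apart from Myl2 in that array, which is the one standing apart. Of the 4 other measured genes around SERCA, Atp2a2, the cardiac pump itself, was past 2-fold higher in C57BL/6 on day 30 (log2 1.09) and within 0.26 of untreated in the other ligated arrays. Atp2a1, the fast skeletal pump, was past 2-fold higher in C57BL/6 on day 30 (1.38) and day 60 (1.60). That made 2 of 4 on day 30 (background 7.91% upwards) and 1 of 4 on day 60 (background 3.64% upwards). Of 10 genes of calcium release and storage kept, 2 were at least 2-fold lower in C57BL/6 on day 30 (background 6.94% downwards), triadin (Trdn, log2 -1.40) and calreticulin (Calr, -1.26). In MRL/MpJ on day 60, 2 were lower (background 2.86% downwards), the release channel Ryr2 and junctin's gene Asph (-1.07).

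The other myosin light chains followed courses of their own. Of the 8 other light chain genes kept, 0 passed 2-fold in MRL/MpJ on day 3 (background 4.98% upwards and 2.64% downwards). On day 30 it was also 0 (background 3.09% upwards and 2.51% downwards). In MRL/MpJ on day 60, Myl1, the fast skeletal essential chain, and Myl9, the smooth muscle regulatory chain, were at least 2-fold higher. That was 2 of 8 (background 4.56% upwards). Mylpf, the fast skeletal regulatory chain, was lower there (1 of 8, background 2.86% downwards). In C57BL/6, Myl1 was lower on day 3 (1 of 8, background 1.33% downwards). Myl2 and Mylpf were higher on day 30 (2 of 8, background 7.91% upwards). Mylpf was higher on day 60 (1 of 8, log2 1.91, background 3.64% upwards). In limma's test across all genes, 1 of the 8 passed for the strain difference, Myl9, higher in MRL/MpJ (log2 2.11, adjusted p = 0.0056, and at most 0.0435 with any 1 array left out), where 0.22% of all genes were called, and 0 of the 8 passed for any day against untreated. Across all genes limma called 0.0% on day 3, 0.0122% on day 30 and 0.0366% on day 60, and 535, 902 and 867 of 8195 genes had an unadjusted p under 0.05. Among the 8 light chains that was 1, 1 and 2.

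Markers of atrial muscle are given beside the 3 genes, since a ventricular sample can carry some atrial tissue. Of 16 other atrial markers measured, 11 were kept. Their summed signal was highest in C57BL/6 on day 30 (54916.4) and lowest in untreated C57BL/6 (11940.8), and Nppa and Clu, the clusterin gene, made up most of it. Without these genes, the other 14 summed to 3574.7 untreated, 4631.2 on day 3, 6186.7 on day 30 and 7601.5 on day 60 in MRL/MpJ hearts. In C57BL/6 hearts they summed to 2461.4, 2761.6, 3656.8 and 2553.4. In the arrays where the 3 genes were lowest, MRL/MpJ day 3 and C57BL/6 day 60, 1 gene made the difference of these sums from untreated. Without Pam the MRL/MpJ sum was 2146.5 on day 3 and 2146.9 untreated, and without Dkk3 the C57BL/6 sum was 2123.6 on day 60 and 2407.7 untreated. Without both, a choice made after the values were seen, the other 12 summed to 1767.2 in MRL/MpJ on day 3 and 2086.0 untreated. In C57BL/6 they summed to 1688.1 on day 60 and 2008.1 untreated, so both arrays lay below untreated. Pam and Dkk3 were above untreated in both arrays, so leaving them out could only lower these sums relative to untreated. Nothing is read from that fall. The MRL/MpJ sums on day 30 (1934.4) and day 60 (1784.9), where the 3 genes were high, were below untreated as well. In C57BL/6 the sums on day 3 (2115.4) and day 30 (2648.7) were above it. Of the 14, 8 had lower and 6 higher signals than untreated in MRL/MpJ on day 3, and 6 had lower and 8 higher signals in C57BL/6 on day 60. The 14 include markers that were not kept, such as Gja5 with at most 8.8 in any array. The share of all genes above or below untreated was not counted, so nothing is read from this split. Kcnj5, a subunit of the atrial acetylcholine-gated potassium channel, was 1 of the 14 and below untreated in both arrays. It had 126.1 in MRL/MpJ on day 3 and 252.4 untreated, and 77.7 in C57BL/6 on day 60 and 135.3 untreated. Its signals were also below untreated in MRL/MpJ on day 30 (182.6) and day 60 (158.4) and in C57BL/6 on day 3 (91.8). In those arrays the 3 genes were higher than untreated. Kcnj5 was above untreated in C57BL/6 on day 30 alone (230.2). Pam, an enzyme of atrial secretory granules, was higher in MRL/MpJ hearts in 4 of 4 pairs of arrays (log2 2.64, SE 0.28, limma adjusted p = 0.0155). Without either day 3 array its adjusted p from limma was 0.0533, without either day 30 array 0.0539, and without either array of another time point at most 0.0462. The part of atrial tissue in the levels of Sln, Myl4 and Myl7 was not tested.

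Single atrial markers varied less and followed other courses. Of the 11 kept, 3 were at least 2-fold higher in each of the day 30 arrays, where 3.09% of all genes were in MRL/MpJ and 7.91% in C57BL/6. Nppa and Dkk3, a secreted Wnt pathway modulator, were shared by both strains, with Pam the third in MRL/MpJ and Stard10, a lipid transfer protein gene, in C57BL/6. In MRL/MpJ on day 3, Nppa, Dkk3 and Clu were higher (3 of 11, background 4.98% upwards) and the potassium channel gene Kcna5 was lower (1 of 11, background 2.64% downwards) at a log2 of -1.26. In C57BL/6 on day 60, Nppa and Dkk3 were higher (2 of 11, background 3.64% upwards) and 0 of the 11 were lower (background 2.12% downwards). In limma's test 0 of the 11 passed for any day against untreated, with 2, 3 and 3 at an unadjusted p under 0.05 on days 3, 30 and 60. Bmp10, a growth factor gene of the right atrium in the mouse, had signals of 21.9 to 263.2, with its lowest in MRL/MpJ on day 60, where Myl4 was highest. Gja5, the atrial connexin 40 gene, had at most 8.8 in any array. The atrial factor Nr2f2 had 80.6 to 201.7, and Tbx5 35.1 to 276.2.

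**Figure D5:**
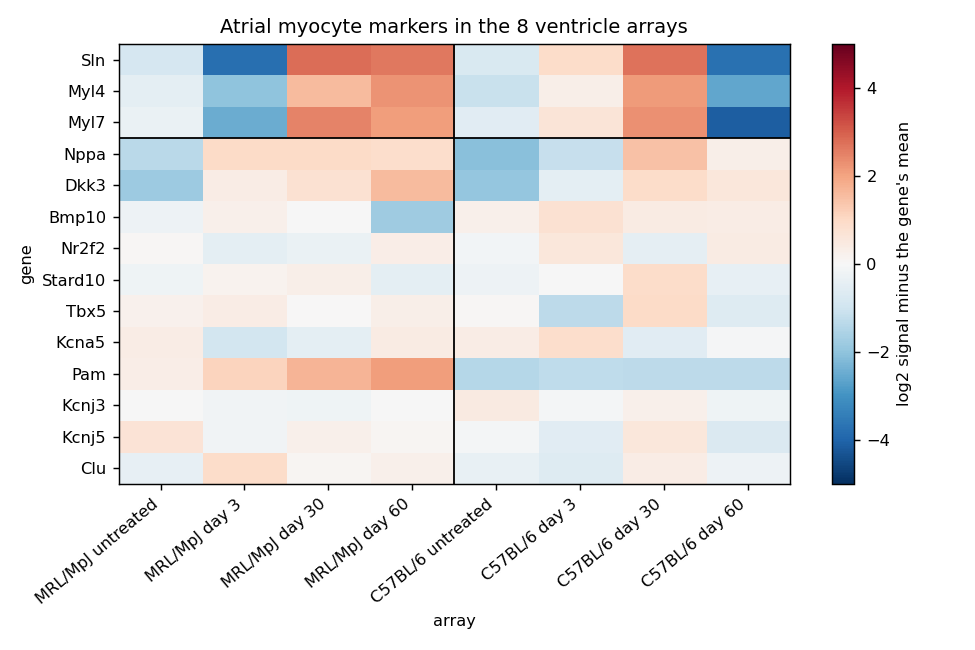
Log2 signal plus offset minus each gene's mean over the 8 arrays (colour scale) for Sln, Myl4, Myl7 and the 11 other atrial myocyte markers kept, with the 4 MRL/MpJ arrays left of the line and the 4 C57BL/6 arrays right of it. The dark blue cells of the top 3 rows, MRL/MpJ day 3 and C57BL/6 day 60, have no counterpart in the rows of Nppa or Dkk3, and the row of Pam separates the strains.

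Sln is also made in skeletal muscle, whose markers are therefore given. The 15 skeletal muscle markers measured summed to 1358.3 to 3290.8 over the arrays. Their sum was highest in C57BL/6 on day 60 (3290.8), where Sln had a signal of 6.7, and next highest in MRL/MpJ on day 60 (3037.9), where Sln had 2932.2. Myl1 alone held 1975.9 of the MRL/MpJ day 60 sum, and 8 of the 15 markers lay under the offset in that array. That sum therefore does not stand for the skeletal muscle markers as a set. Of the 7 kept, 3 were at least 2-fold higher in C57BL/6 on day 60 (background 3.64% upwards). These were Tnnt3, Mylpf and Atp2a1, at a log2 of 1.92, 1.91 and 1.60. In C57BL/6 on day 30, 4 were higher (background 7.91% upwards), the same 3 and Myoz1. In MRL/MpJ on day 60, Myl1 was higher (1 of 7, background 4.56% upwards) and Mylpf lower (1 of 7, background 2.86% downwards). Among other sources of tissue at the base of the heart, 8 markers of the conduction system summed to 631.2 to 915.4, and 8 of epicardium to 665.2 to 1598.1 with the highest in C57BL/6 on day 30. Markers of endocardium and endothelium, 10 in number, summed to 3466.8 to 4550.6, those of smooth muscle, 9, to 3308.5 to 7929.3, and those of lung, 7, to 524.8 to 1217.0. Of 10 ventricular myocyte markers kept, 1 was at least 2-fold higher in C57BL/6 on day 30, Myl2 (background 7.91% upwards). The potassium channel subunit gene Kcnip2 was lower there (1 of 10, log2 -1.24, background 6.94% downwards). In the other 5 ligated arrays 0 of the 10 passed 2-fold in either direction (background 2.43% to 4.98% upwards and 1.33% to 2.86% downwards).

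Transcription factor genes of the atrium and the heart passed 2-fold in 5 of the 6 ligated arrays, with 1 to 3 of the 16 kept in each. Counts this small cannot be told apart from the shares of all genes given beside them, so nothing is read from them. In MRL/MpJ, Hopx, a homeodomain-only cofactor gene of heart muscle, was at least 2-fold lower on day 3 (1 of 16, background 2.64% downwards) and on day 60 (1 of 16, background 2.86%), and 0 of 16 passed on day 30 (background 3.09% upwards and 2.51% downwards). In C57BL/6, Tbx5 was lower on day 3 (1 of 16, background 1.33% downwards) and Hand2 on day 60 (1 of 16, background 2.12%). In C57BL/6 on day 30, Hand1 (log2 1.59) and Gata5 (1.07) were higher (2 of 16, background 7.91% upwards) and Mef2a (-1.23) was lower (1 of 16, background 6.94% downwards). Nkx2-5 had signals of 539.3 to 942.1 and Gata4 of 373.8 to 568.4 over the 8 arrays.

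The 3 genes were more alike in their course over the 8 arrays than any other gene was to them. Pearson's r of the log2 values was 0.979 for Sln with Myl7 (Spearman's rho 0.952), 0.976 for Sln with Myl4 (rho 0.857) and 0.968 for Myl4 with Myl7 (rho 0.905). Because the arrays fall into high and low sets, r rests largely on the distance between these sets. Without the 2 arrays farthest from the median of the first gene of each pair, r over the other 6 was 0.993, 0.968 and 0.978. For the pairs with Sln these were MRL/MpJ day 3 and C57BL/6 day 60. For Myl4 with Myl7 they were C57BL/6 day 60 and MRL/MpJ day 60. The arrays left in still held high and lower ones, so the distance between the sets was not removed. The arrays share scaling and strain, and no p is given. Outside the 3, the genes most like their mean profile were Rab1b, a vesicle traffic GTPase gene (r 0.923), Golga2, which encodes a Golgi matrix protein (0.905), Gprin1 (0.901), Tcl1b4 (0.895) and Mrps6, a mitochondrial ribosomal protein gene (0.883). Apart from Tcl1b4, with a range of 2.68, these had ranges over the arrays from a log2 of 0.47 (Rab1b) to 1.04 (Gprin1). For single genes the 5 most alike added Fam53c (r 0.906) and Pradc1 (0.890) to Sln, Cnn1, the smooth muscle calponin gene (0.908), to Myl4, and Ovol2 (0.893) to Myl7. Of the other atrial markers, Kcnj5 had an r of 0.568 with the mean profile, and Stard10 0.417. Nppa had 0.273 and Myh7 0.119, and Bmp10 had -0.382.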

How the data were processed

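RNA of 8 left ventricles was hybridised to Affymetrix mouse arrays. The deposited values are signal intensity per probe set on a linear scale, made by the authors with MAS5 per the submitters' processing notes; version and scaling target are not given in the sources used here. Of 22626 probe sets, 20380 had 1 gene symbol, 691 several and 1555 none in the platform annotation, and 0 symbols needed updating. Where a gene had several probe sets, the one brightest on average (log2) stood for it, which gave 12393 genes. Before taking log2, 28.6 was added to each signal, which is percentile 20 over the whole table. The 8195 genes that reached the table's median, 121.0, in 2 or more arrays were kept, including Sln (6 arrays), Myl4 (8) and Myl7 (6).

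The fit used limma 3.58.1 in R 4.3.3 with strain and time point as terms, all 8 arrays and 3 residual degrees of freedom, with a call at a Benjamini-Hochberg adjusted p under 0.05. It was tested on simulated data that held no strain-by-time differences, so that test does not cover the error of the fit here. Comparisons of 1 array against 1 had no test and a limit of 2-fold. P-values are set against strain-by-time differences, which cannot be parted here from a spread between arrays that may be technical. The number of arrays limits the precision.

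The members and gene lists were chosen with earlier results of these data known. Named genes are the members, the 5 genes most like each of them and their mean by Pearson's r, up to 4 genes per list with the largest change in C57BL/6 on day 30, the ventricular counterparts, Nppa and Myh7. Pam, Clu, Bmp10, Gja5, Nr2f2, Myl1, Myl9, Ryr2, Hopx, Hand2, Kcnj5, Sfrp2, Adipoq, Nkx2-5, Gata4, Nppb, Acad10, Apoa2, Ddit4 and Pdk4 were chosen after their values were seen, as were the short GATA motif and the CArG box. Alternatives were other offsets, quantile normalization, the mean over probe sets, other filters, an intensity trend and leaving out each array.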

Additional observations from a re-analysis of the deposited data

Results flagged for a closer look

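Sln, Myl4 and Myl7 had changes of opposite sign in the strains on days 3 and 60, with 1 array per strain and time point, and the difference was not tested. On day 3 the change from untreated in MRL/MpJ minus that in C57BL/6 was a log2 of -4.59 for Sln, -2.92 for Myl4 and -3.39 for Myl7. On day 60 it was 6.48 for Sln, 4.22 for Myl4 and 5.96 for Myl7. Both days use the same untreated arrays. No group has the 4 samples needed to look for a single sample far from the others.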

How the results depend on the processing

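Within each strain, the changes of Sln, Myl4 and Myl7 kept their direction under other offsets, quantile normalization and the mean over a gene's probe sets, and in 72 of 72 such values they moved by less than the residual SD of the additive fit, which is wide for these genes. Of the fitted differences of the 3 genes, 45 of 48 did so too and 3 turned. Myl4 on day 3 was at 0.28 with the mean over probe sets (-0.05 as reported), and Sln on day 60 was at -0.13 with the offset at percentile 10 (11.8) and -0.20 with the mean over probe sets (0.25 as reported).

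Counts of genes called by limma depended on the settings. For days 3, 30 and 60 against untreated and for MRL/MpJ against C57BL/6, 0, 1, 3 and 18 genes were called as reported. The offset at percentile 40 (84.8) gave 10, 8, 27 and 30, a filter on the mean signal 13, 5, 27 and 30, and an intensity trend 26, 24, 75 and 43. The mean over probe sets gave 4 on day 3 and 10 for strain. With no filter the count was 0 on day 30, 0 on day 60 and 8 for strain. Of 48 counts of genes past 2-fold, 13 moved by more than 1.5 times, 12 of them with the offset at percentile 40, and of 624 list counts 51 did.

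With 1 array left out, 0 genes were called on day 3, 0 to 186 on day 30 (186 without MRL/MpJ day 30), 0 to 30 on day 60 (30 without either day 3 array) and 7 to 14 for strain. Where the lone array of a time point stayed, it was assumed to vary like the others. The members' fitted log2 differences ranged as follows. On day 3 Sln ran between -4.03 and 2.77, Myl4 between -2.02 and 1.92 and Myl7 between -3.14 and 2.22. On day 30 Sln ran between 3.21 and 3.90, Myl4 between 1.85 and 3.47 and Myl7 between 2.38 and 3.28. On day 60 Sln ran between -3.72 and 4.23, Myl4 between -2.17 and 3.42 and Myl7 between -4.11 and 2.99. For strain Sln ran between -1.56 and 2.13, Myl4 between -0.75 and 1.64 and Myl7 between -0.89 and 2.22. The cause was not tested. Signals under the offset, such as Sln in MRL/MpJ on day 3, set no firm size to a fold change. No block by replicate number could be fitted, since each group has 1 array; the additive fit already compares the strains within each time point.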

Other observations

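Nppb, the B-type natriuretic peptide gene, also differed in sign between the strains on day 3, but in the opposite sense to Sln. It was above untreated by a log2 of 1.92 in MRL/MpJ hearts (signals 14070.5 on day 3 and 3703.6 untreated) and stood at -0.75 in C57BL/6 hearts (4458.3 on day 3 and 7500.8 untreated). On day 60 it was at 1.63 in MRL/MpJ and 0.19 in C57BL/6. Besides Sln, Myl4, Myl7 and Tcl1b4, the genes at least 2-fold lower in MRL/MpJ than in C57BL/6 on day 3 and at least 2-fold higher on day 60 were Acad10, Apoa2, Ddit4 and Pdk4, which makes 8 of 8195. Pdk4 encodes a kinase that holds back glucose oxidation, and Ddit4 a stress-induced inhibitor of growth signalling.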
